A study of Homo sapiens with 6 samples.

Results

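The 46 genes described here encode core proteins of 3 DNA repair pathways, with 23 genes in nucleotide excision repair and its transcription factor TFIIH, 18 in base excision repair and 5 in mismatch repair. They were picked by gene symbol from a table of 58735 genes, and all 46 symbols were found in it. RNA was sequenced from 6 libraries of sw480 human colorectal cancer cells without further treatment, 3 of control cells and 3 of cells in which CNOT7 was knocked down with shRNA as a stable line. CNOT7 is a deadenylase of the CCR4-NOT complex, which shortens the poly(A) tails of mRNAs, and the study asked which genes change downstream of it in work on radiation resistance and DNA repair. Which shRNA each knockdown library carries and how many clones the line holds are not given. The deposited labels name SW480, whereas the text of the study names HCT116 for its sequencing experiment.

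Nucleotide excision repair cuts out a stretch of one DNA strand around a bulky lesion such as an ultraviolet photoproduct. The lesion is found either across the whole genome by XPC with RAD23B and by the DDB1-DDB2 ubiquitin ligase, or where it stalls RNA polymerase, and TFIIH then opens the DNA for incision. Base excision repair removes single damaged bases through DNA glycosylases, an AP endonuclease, gap filling and ligation, and mismatch repair corrects replication errors recognised by MutS homologues and processed with MutL homologues.

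CNOT7 itself stood at 169, 191 and 176 CPM (counts scaled to a common library size) in the control libraries and at 43.4, 47.2 and 38.6 CPM in the knockdown libraries. The groups were far apart, and 24.1% of the control mean was left (log2 fold change -2.05, SE 0.0734, adjusted p = 2.64e-12, edgeR). The control libraries held 23788451 to 25982493 counts each and the knockdown libraries 27523812 to 29104872. Of 8 colorectal epithelial markers, 7 reached 1 CPM in every library and CDX1 was at or near 0. Summed over the 8 genes they gave 5554 to 5972 CPM in control and 5132 to 5683 CPM in knockdown libraries, while fibroblast, endothelial and leukocyte markers summed to at most 11.95, 3.48 and 4.40 CPM in any library. CPM are shares of a library, so in these bulk samples fewer cells expressing a gene and less of its RNA per cell cannot be told apart.

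With CNOT7 knockdown, 7 of the 45 repair genes that could be tested fell and 1 rose, all by modest amounts. The genes that fell were CUL4B, RAD23B, UVSSA and ERCC3 of nucleotide excision repair and TDG, UNG and PARP2 of base excision repair. The gene that rose was CUL4A, the close paralogue of CUL4B. A gene was counted as changed when its adjusted p in edgeR's quasi-likelihood test over all tested genes was under 0.05. The 8 genes make up 17.8% of the 45, against 25.2% of all 17574 tested genes. By direction, 15.6% of the repair genes fell, against 11.9% of all tested genes, and 2.22% rose, against 13.3%.

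**Figure D1:**
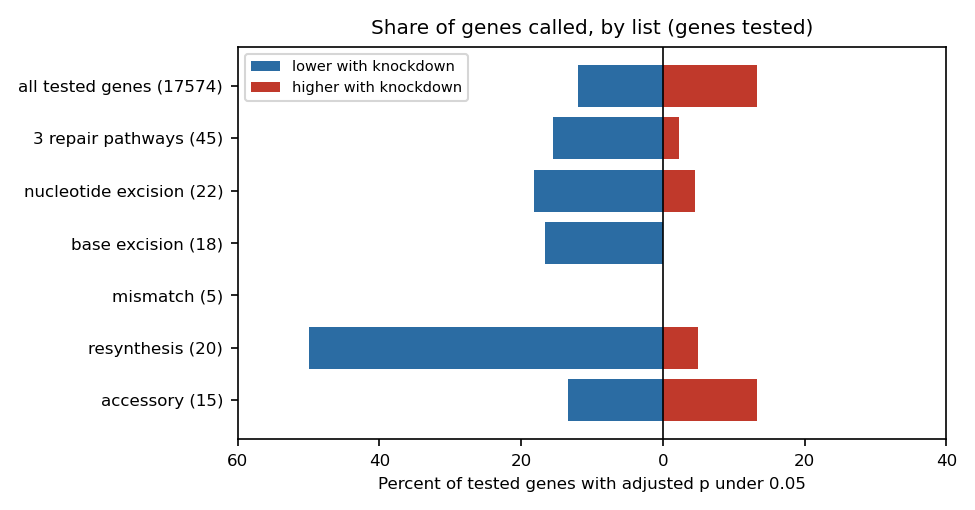
Bars give the percent of tested genes with an adjusted p under 0.05 in each list, lower with knockdown to the left of 0 and higher to the right, with the number of tested genes in brackets. The 3 repair pathways together reach 15.6% to the left and 2.22% to the right, and the resynthesis genes 50% to the left.

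Promoters are shown for the 8 genes that passed the test, so that the upstream sequence of the gene that rose can be read beside those of the genes that fell. CUL4B is named only, since its window began on an annotated exonic base, so that the cut described next left nothing to show. The sequences are RefSeq windows on GRCh38.p14, up to 250 bases before the annotated start, each written on the strand of its gene. Each was cut at the first base that GENCODE 29 places in an exon of the gene. Capitals mark matches on either strand to CCAAT (the CCAAT box), GGGCGG (the GC box), CCGGAAG (an ETS motif) and GCGGGAA (an E2F motif).
CUL4A, chr13:113207943-113208192, plus strand: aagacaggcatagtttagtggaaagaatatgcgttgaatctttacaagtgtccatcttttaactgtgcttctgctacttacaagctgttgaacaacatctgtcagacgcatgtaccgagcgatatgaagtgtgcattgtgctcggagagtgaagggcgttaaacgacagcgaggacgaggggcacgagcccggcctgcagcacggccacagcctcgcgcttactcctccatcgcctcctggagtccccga
RAD23B, chr9:107283029-107283136, plus strand: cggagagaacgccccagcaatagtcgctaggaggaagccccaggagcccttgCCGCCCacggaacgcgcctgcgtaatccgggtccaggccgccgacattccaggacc
UVSSA, chr4:1346958-1347207, plus strand: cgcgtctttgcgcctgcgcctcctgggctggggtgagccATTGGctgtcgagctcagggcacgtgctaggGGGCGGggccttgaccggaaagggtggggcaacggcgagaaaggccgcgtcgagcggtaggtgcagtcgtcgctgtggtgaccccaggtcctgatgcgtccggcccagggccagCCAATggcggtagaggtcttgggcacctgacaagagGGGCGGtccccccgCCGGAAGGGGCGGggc
ERCC3, chr2:127294177-127294394, minus strand: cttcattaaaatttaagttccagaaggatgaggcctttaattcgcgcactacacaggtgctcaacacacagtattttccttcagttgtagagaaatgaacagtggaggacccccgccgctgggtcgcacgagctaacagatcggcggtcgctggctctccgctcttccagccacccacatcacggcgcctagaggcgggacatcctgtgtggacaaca
TDG, chr12:103965622-103965803, plus strand: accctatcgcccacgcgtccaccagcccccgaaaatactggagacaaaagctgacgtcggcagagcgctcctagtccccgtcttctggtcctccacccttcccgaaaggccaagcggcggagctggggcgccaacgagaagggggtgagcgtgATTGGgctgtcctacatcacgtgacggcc
UNG, chr12:109097347-109097573, plus strand: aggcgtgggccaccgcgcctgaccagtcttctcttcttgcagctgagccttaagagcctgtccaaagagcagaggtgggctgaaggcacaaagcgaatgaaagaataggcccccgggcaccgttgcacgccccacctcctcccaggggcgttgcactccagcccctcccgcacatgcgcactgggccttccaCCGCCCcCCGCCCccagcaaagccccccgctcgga
PARP2, chr14:20343385-20343581, plus strand: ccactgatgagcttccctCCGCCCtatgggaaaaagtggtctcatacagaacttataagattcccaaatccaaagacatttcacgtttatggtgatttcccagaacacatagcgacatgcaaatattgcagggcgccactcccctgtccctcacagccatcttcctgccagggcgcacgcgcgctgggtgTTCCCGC
The bases shown for CUL4A and ERCC3 held none of these matches. Those of UVSSA held 2 CCAAT boxes, 3 GC boxes and 1 ETS match, the last lying directly against a GC box without overlap. TDG had 1 CCAAT box, RAD23B had 1 GC box, UNG had 2 GC boxes, and PARP2 had 1 GC box and 1 E2F match. Before the cut, the window of ERCC3 also held an ETS match and that of RAD23B a CCAAT box. The uncut window of CUL4B held a CCAAT box and an ETS match, and that of CUL4A held none of the motifs. Windows were found for 43 of the 46 genes, all but NEIL2, POLB and SMUG1. In the full windows the CCAAT box occurred in 48.8% of the 43 genes and in 33.0% of all 27305 genes with a window, and the GC box in 65.1% and 42.2%. The ETS match occurred in 14.0% and 8.78% and the E2F match in 11.6% and 5.56%. These are counts of letters and not of bound factors.

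The 7 genes of global-genome damage recognition held 3 of the 8 calls, including the largest of them. This is 42.9% of these few genes, against 25.2% of all tested genes. CUL4B (X:120524609-120575794, minus strand) encodes a cullin scaffold of the ubiquitin ligases built on DDB1. Its level was 238, 276 and 256 CPM in control and 181, 205 and 176 CPM in knockdown libraries. Every knockdown library lay below every control library, and 73.0% of the control mean was left (log2 fold change -0.45, SE 0.0660, adjusted p = 7.02e-05, edgeR). CUL4A (13:113208193-113267108, plus strand), which encodes the other CUL4 scaffold, stood at 112, 117 and 116 CPM in control and 131, 132 and 136 CPM in knockdown libraries. Here every knockdown library lay above every control library, and the mean rose to 116% of control (log2 fold change 0.22, SE 0.0536, adjusted p = 0.00679, edgeR). RAD23B (9:107283137-107332194, plus strand), which encodes the partner that stabilises XPC, gave 335, 342 and 365 CPM in control and 294, 309 and 285 CPM in knockdown libraries. The groups did not overlap, with 85.3% of the control mean left (log2 fold change -0.23, SE 0.0532, adjusted p = 0.00416, edgeR).

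Because the cullins moved in opposite directions, their ratio per length of exon shifted. CUL4B stood at 2.38, 2.64 and 2.47 times CUL4A in control and at 1.55, 1.74 and 1.44 times CUL4A in knockdown libraries, and so remained the higher of the pair. In means the ratio was 2.50 ± 0.133 (SD, n = 3) in control and 1.57 ± 0.150 (SD, n = 3) in knockdown libraries. For comparison, PARP1 stood at 7.01 ± 0.788 times PARP2 in control and 7.73 ± 0.441 times in knockdown libraries. APEX1 against APEX2 gave 0.980 ± 0.0326 and 0.983 ± 0.0425, and MSH6 against MSH3 gave 2.96 ± 0.229 and 3.03 ± 0.313 (all SD, n = 3). These 4 pairs were chosen after the values were seen and are given without a test. The 308 tested genes of chromosome 13, which carries CUL4A, had a median of 0.12 on the log2 scale and 66.6% above 0, against a median of 0.004 over all tested genes and -0.01 over the 576 of chromosome X, which carries CUL4B. The part of this in the CUL4A value was not tested.

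The remaining recognition genes did not pass the threshold. XPC, the sensor of distorted DNA, stood at 44.8, 38.8 and 44.2 CPM in control and 39.6, 37.1 and 38.1 CPM in knockdown libraries. Control replicate 2 lay within the knockdown range (log2 fold change -0.16, SE 0.0731, adjusted p = 0.133, edgeR), and without that library the adjusted p was 0.0389. DDB1, the adaptor that links both cullins to their substrate receptors, gave 519, 504 and 502 CPM in control and 472, 469 and 472 CPM in knockdown libraries. These groups did not overlap, but the difference was small (log2 fold change -0.11, SE 0.0467, adjusted p = 0.0957, edgeR) and passed with DESeq2 (adjusted p = 0.0370). With the trend with abundance removed, it was -0.04 (adjusted p = 0.588). DDB2, the receptor that binds ultraviolet lesions, stood at 45.8 ± 0.337 CPM in control and 47.6 ± 1.66 CPM in knockdown libraries (SD, n = 3; log2 fold change 0.05, SE 0.0642, adjusted p = 0.586, edgeR). CETN2, the centrin of the XPC complex, was at 32.9 ± 0.873 and 29.3 ± 3.31 CPM (SD, n = 3; log2 fold change -0.17, adjusted p = 0.157, edgeR), and passed without knockdown replicate 2 (adjusted p = 0.0142). RBX1, the ring subunit of the same ligases and not one of the 46, fell from 34.1 ± 1.90 to 28.6 ± 1.02 CPM (SD, n = 3; log2 fold change -0.26, SE 0.0739, adjusted p = 0.0166, edgeR).

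**Figure D2:**
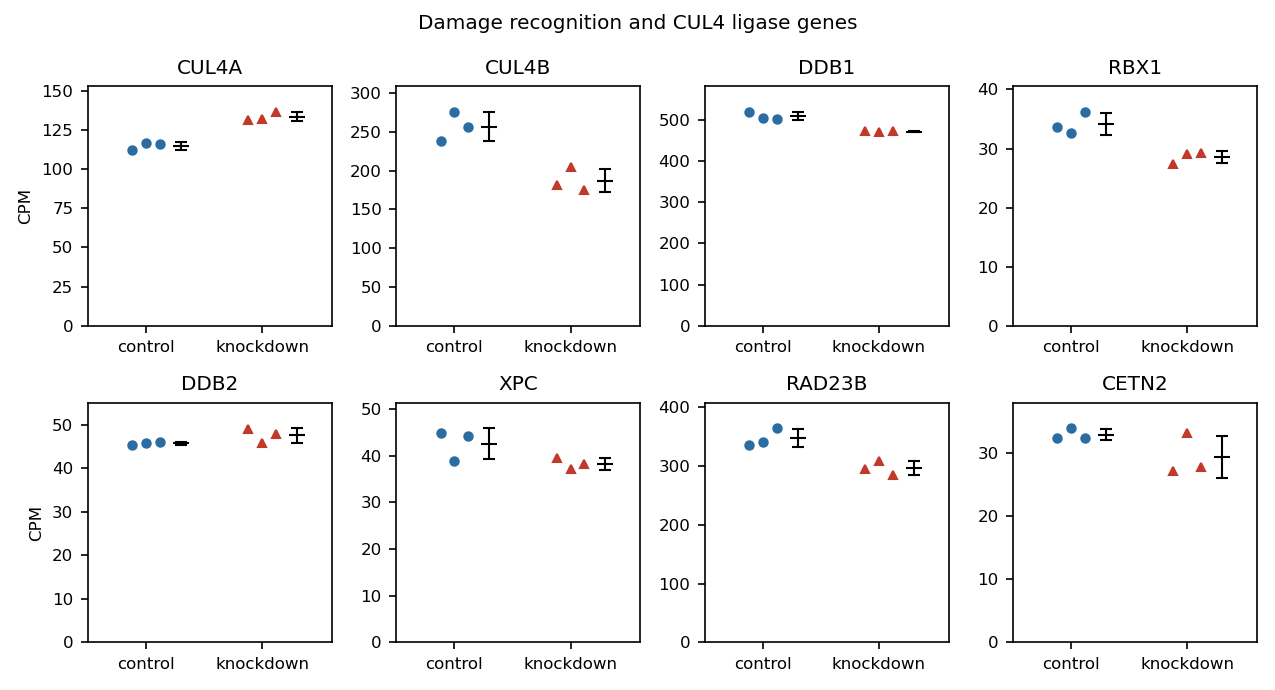
Each panel plots CPM in the 3 control (circles) and 3 knockdown (triangles) libraries for 1 gene of damage recognition or the CUL4 ligase, with the mean and SD beside the points and the axis starting at 0. CUL4A lies higher and CUL4B, RAD23B, RBX1 and DDB1 lie lower in all 3 knockdown libraries, DDB1 without passing the threshold. The XPC, DDB2 and CETN2 groups overlap.

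Of the 3 genes of transcription-coupled recognition, UVSSA (4:1347266-1395992, plus strand), which stabilises ERCC6 at stalled polymerase, was the one that changed. It stood at 35.7, 35.9 and 32.7 CPM in control and 30.2, 28.9 and 30.4 CPM in knockdown libraries. The groups did not overlap, and 85.7% of the control mean was left (log2 fold change -0.22, SE 0.0725, adjusted p = 0.0323, edgeR). The call was lost without control replicate 1, control replicate 2, knockdown replicate 1 or knockdown replicate 2, with adjusted p of 0.108, 0.0851, 0.0736 and 0.0599. ERCC6, the remodeller that engages the stalled polymerase, stood at 18.4, 19.0 and 20.1 CPM in control and 19.7, 21.0 and 19.5 CPM in knockdown libraries (log2 fold change 0.07, SE 0.0829, adjusted p = 0.619, edgeR). ERCC8, its ubiquitin ligase partner, varied between 7.59 and 11.0 CPM over the 6 libraries, and its groups overlapped (log2 fold change 0.10, SE 0.133).

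All 5 tested genes listed for the TFIIH core had a log2 fold change below 0, and all 3 genes of its CDK-activating kinase had one above 0. However, ERCC2 and MNAT1 lay near 0 and changed sign in some fits. ERCC2 was at 0.0026 with the trend with abundance removed and 6.8e-05 without control replicate 1, and MNAT1 at -0.041 without control replicate 3 and -0.044 without knockdown replicate 2. Of these 8 genes only ERCC3 (2:127257290-127294176, minus strand), the XPB translocase that opens the DNA, passed the threshold. Its level was 105, 103 and 103 CPM in control and 91.9, 89.0 and 92.2 CPM in knockdown libraries. The libraries of each group lay close together and the groups were apart, with 87.8% of the control mean left (log2 fold change -0.19, SE 0.0545, adjusted p = 0.0175, edgeR). The call was lost without control replicate 1 or control replicate 3 (adjusted p of 0.0642 and 0.0682) and after removal of the trend with abundance (adjusted p = 0.0742). ERCC2, the XPD helicase, stood at 73.3, 64.0 and 71.0 CPM in control and 66.0, 66.9 and 70.01 CPM in knockdown libraries, with overlapping groups (log2 fold change -0.04, SE 0.0650, adjusted p = 0.722, edgeR). The structural subunits GTF2H1, GTF2H3 and GTF2H5 had log2 fold changes of -0.13, -0.09 and -0.18. In the kinase, none of CDK7, CCNH and MNAT1 passed in edgeR or DESeq2, with log2 fold changes of 0.16, 0.12 and 0.04, and CDK7 alone had an unadjusted p under 0.05. CDK7, which also phosphorylates RNA polymerase II, stood at 34.3, 36.9 and 36.8 CPM in control and 39.9, 42.4 and 38.4 CPM in knockdown libraries, without overlap (adjusted p = 0.108, edgeR).

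GTF2H4, the remaining gene listed here for the TFIIH core, was removed by the filter on low counts. It had 3, 7 and 5 counts in control and 3, 7 and 1 in knockdown libraries. In GENCODE 29, 79.0% of its exonic bases are shared with VARS2 on the same strand, which had 607 to 914 counts per library, so its level could not be separated from that of its neighbour.

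In damage verification and incision, none of the 4 genes passed the threshold in edgeR or DESeq2, and none had an unadjusted p under 0.05. XPA, which checks the lesion, was at 19.0 ± 0.963 CPM in control and 18.3 ± 1.54 CPM in knockdown libraries (SD, n = 3; log2 fold change -0.06, SE 0.0896). ERCC1 and ERCC4, the subunits of the nuclease that cuts on the 5′ side of the lesion, had log2 fold changes of 0.01 (SE 0.0898) and -0.01 (SE 0.0950). For ERCC1 the libraries read 69.3, 54.4 and 63.0 CPM in control and 62.6, 55.6 and 70.5 CPM with knockdown, so each group covered much of the range of the other. ERCC5, the nuclease of the 3′ side, had few counts assigned to it. It read 3.62, 2.24 and 4.03 CPM in control and 4.40, 3.59 and 4.26 CPM in knockdown libraries (log2 fold change 0.30, SE 0.191, adjusted p = 0.271, edgeR). The annotation places 63.2% of its exonic bases in the readthrough gene BIVM-ERCC5, which had 0 counts in all 6 libraries. The ERCC5 values therefore cannot be ranked against those of other genes.

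**Figure D3:**
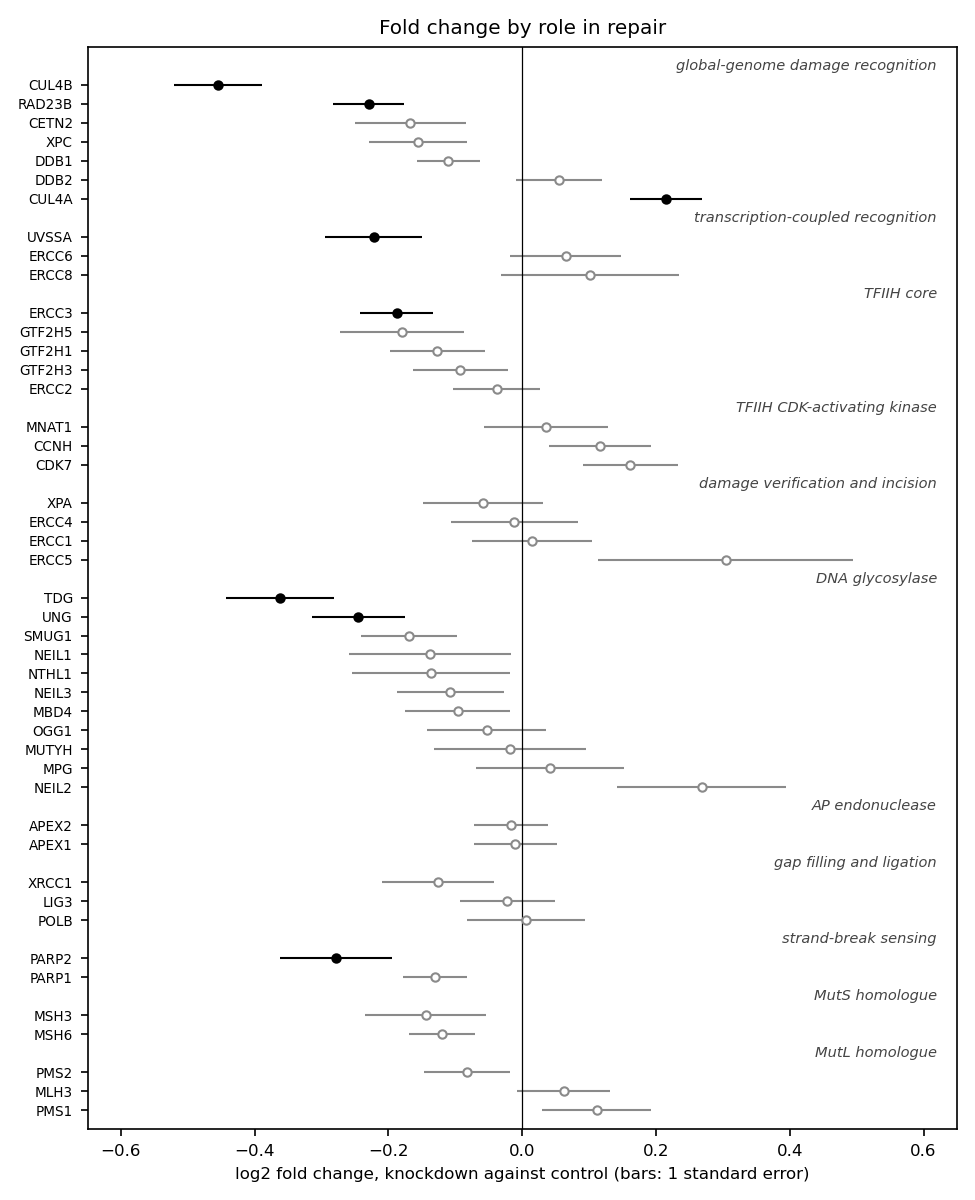
Points give the log2 fold change of knockdown against control for the 45 tested genes, grouped by role, with bars of 1 standard error. Filled points passed an adjusted p of 0.05, namely CUL4B, RAD23B, UVSSA, ERCC3, TDG, UNG and PARP2 to the left of 0 and CUL4A to the right.

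In base excision repair, 3 of 18 genes fell and none rose. The share called was 16.7%, under the 25.2% of all tested genes. Of the 18 log2 fold changes 15 lay below 0, or 83.3% against 49.3% of all tested genes. NEIL2, at 0.27 (SE 0.127, adjusted p = 0.135, edgeR), was the one above 0 with an unadjusted p under 0.05, and no gene of this pathway rose with DESeq2 either. Among the glycosylases, which cut the damaged base from its sugar, TDG (12:103965804-103988874, plus strand) changed most. TDG removes thymine and uracil opposite guanine and the oxidised forms of methylcytosine. It stood at 27.1, 28.7 and 28.3 CPM in control and 23.6, 21.6 and 20.2 CPM in knockdown libraries. The groups were apart, with 77.8% of the control mean left (log2 fold change -0.36, SE 0.0807, adjusted p = 0.00309, edgeR). UNG (12:109097574-109110992, plus strand), the main uracil glycosylase, gave 88.5, 76.0 and 82.9 CPM in control and 69.1, 64.98 and 74.8 CPM in knockdown libraries. Its groups came close but did not overlap, with 84.4% of the control mean left (log2 fold change -0.25, SE 0.0699, adjusted p = 0.0159, edgeR). The UNG call was lost without control replicate 1, control replicate 3 or knockdown replicate 1 (adjusted p of 0.0825, 0.0593 and 0.0603) and after removal of the trend with abundance (adjusted p = 0.0513).

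SMUG1, a further uracil glycosylase, had non-overlapping groups of 36.3 to 40.7 CPM in control and 33.4 to 35.5 CPM in knockdown libraries but did not pass (log2 fold change -0.17, SE 0.0719, adjusted p = 0.0963, edgeR). OGG1, which removes 8-oxoguanine, read 17.0, 18.2 and 16.1 CPM in control and 16.0, 16.0 and 17.4 CPM in knockdown libraries (log2 fold change -0.05, SE 0.0891, adjusted p = 0.717, edgeR). Its partner against oxidised guanine, MUTYH, which removes the mispaired adenine, had a log2 fold change of -0.02. The other glycosylases, NTHL1, NEIL1, NEIL3, MBD4 and MPG, lay between -0.14 and 0.04, and their groups overlapped.

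Downstream of the glycosylases, the genes for cutting the abasic site, filling the gap and sealing it did not pass, in edgeR or in DESeq2, and none of the 5 had an unadjusted p under 0.05. APEX1, the main AP endonuclease, stood at 105, 96.0 and 106 CPM in control and 97.6, 99.1 and 108 CPM in knockdown libraries (log2 fold change -0.01, SE 0.0616, adjusted p = 0.926, edgeR). POLB, the gap-filling polymerase, gave 17.6, 19.6 and 18.03 CPM in control and 17.4, 19.9 and 18.2 CPM in knockdown libraries (log2 fold change 0.006, SE 0.0882, adjusted p = 0.971, edgeR). The groups of both genes overlapped almost fully, and the signs of these near-zero values changed with the processing. XRCC1, the scaffold for single-strand break repair, was at 37.2, 33.8 and 34.7 CPM in control and 34.4, 28.2 and 34.2 CPM in knockdown libraries, with knockdown replicate 2 lowest (log2 fold change -0.13, SE 0.0837, adjusted p = 0.301, edgeR). Without that library its log2 fold change was -0.04. APEX2 and LIG3, the ligase bound to XRCC1, both had a log2 fold change of -0.02.

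The strand-break sensors PARP1 and PARP2, which build poly(ADP-ribose) at a nick, both had lower values in every knockdown library. PARP2 (14:20343582-20357905, plus strand) stood at 30.8, 35.2 and 28.6 CPM in control and 25.9, 27.1 and 25.0 CPM in knockdown libraries. The mean fell to 82.4% of control (log2 fold change -0.28, SE 0.0838, adjusted p = 0.0210, edgeR). This call was lost without control replicate 2, knockdown replicate 1 or knockdown replicate 3, with adjusted p of 0.105, 0.0640 and 0.0562. PARP1 gave 379.7, 382 and 391 CPM in control and 346, 348 and 359 CPM in knockdown libraries. Its groups were apart by more than the spread within either, yet it lay just outside the threshold (log2 fold change -0.13, SE 0.0481, adjusted p = 0.0562, edgeR) and passed with DESeq2 (adjusted p = 0.0172) and with RLE factors (adjusted p = 0.0418). With the trend with abundance removed, its log2 fold change was -0.06 (adjusted p = 0.374).

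None of the 5 mismatch repair genes passed the threshold in edgeR. MSH6 alone had an unadjusted p under 0.05, and DESeq2 called 1 gene, also MSH6. MSH6, the MutS homologue for base mismatches and short loops, stood at 231, 229 and 231 CPM in control and 208, 217 and 211 CPM in knockdown libraries. The groups did not overlap, and 92.0% of the control mean was left (log2 fold change -0.12, SE 0.0498, adjusted p = 0.0895, edgeR). Removal of the trend with abundance brought its log2 fold change to -0.06 (adjusted p = 0.412). MSH3, which serves larger loops, gave 31.6, 36.3 and 32.6 CPM in control and 28.2, 34.9 and 27.9 CPM in knockdown libraries. Knockdown replicate 2 lay within the control range (log2 fold change -0.14, SE 0.0909, adjusted p = 0.272, edgeR), and without it MSH3 passed (log2 fold change -0.26, adjusted p = 0.0230). PMS2, the endonuclease subunit, stood at 44.0, 44.4 and 46.4 CPM in control and 42.1, 43.1 and 42.2 CPM in knockdown libraries (log2 fold change -0.08, SE 0.0647, adjusted p = 0.390, edgeR). The table lists 11 further genes named as PMS2 copies, with 1083 to 1467 counts per library in sum against 1033 to 1257 for PMS2 itself, so reads could have been split among them and the PMS2 value is uncertain. PMS1 and MLH3 had log2 fold changes of 0.11 (SE 0.0816) and 0.06 (SE 0.0698).

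Around the threshold, the members just inside were PARP2 and UVSSA, with adjusted p of 0.0210 and 0.0323, and those just outside were PARP1 and MSH6, with 0.0562 and 0.0895 (edgeR). Of the 8 genes called, CUL4A, CUL4B, RAD23B and TDG passed under all 12 alternatives, including the 6 fits that each left out 1 library.

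Seen over all 45 tested genes, 31 log2 fold changes lay below 0 and 14 above, with a median of -0.08 against 0.004 over all tested genes. The medians were -0.05 for nucleotide excision repair, -0.10 for base excision repair and -0.08 for mismatch repair. Without knockdown replicate 2 the median was -0.049 over the 45 genes, -0.079 for nucleotide excision repair and -0.048 for base excision repair. With the trend with abundance removed, the median over nucleotide excision repair was -0.032 and over mismatch repair -0.054. The share below 0 was 68.9% in the repair genes and 49.3% in all tested genes. Relative to the control mean of each gene, the median repair gene stood at -0.02, 0.0009 and -0.005 on the log2 scale in control and at -0.09, -0.05 and -0.09 in knockdown libraries. Summed over the 46 genes, the level was 3441, 3446 and 3457 CPM in control and 3159, 3231 and 3178 CPM in knockdown libraries, or 92.5% of the control mean. The sum was 91.4% of control for nucleotide excision repair, 93.3% for base excision repair and 95.5% for mismatch repair. The groups of 3 libraries did not overlap for 15 of the 45 genes, 13 lower and 2 higher, which is 33.3% against 38.8% of all tested genes.

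**Figure D4:**
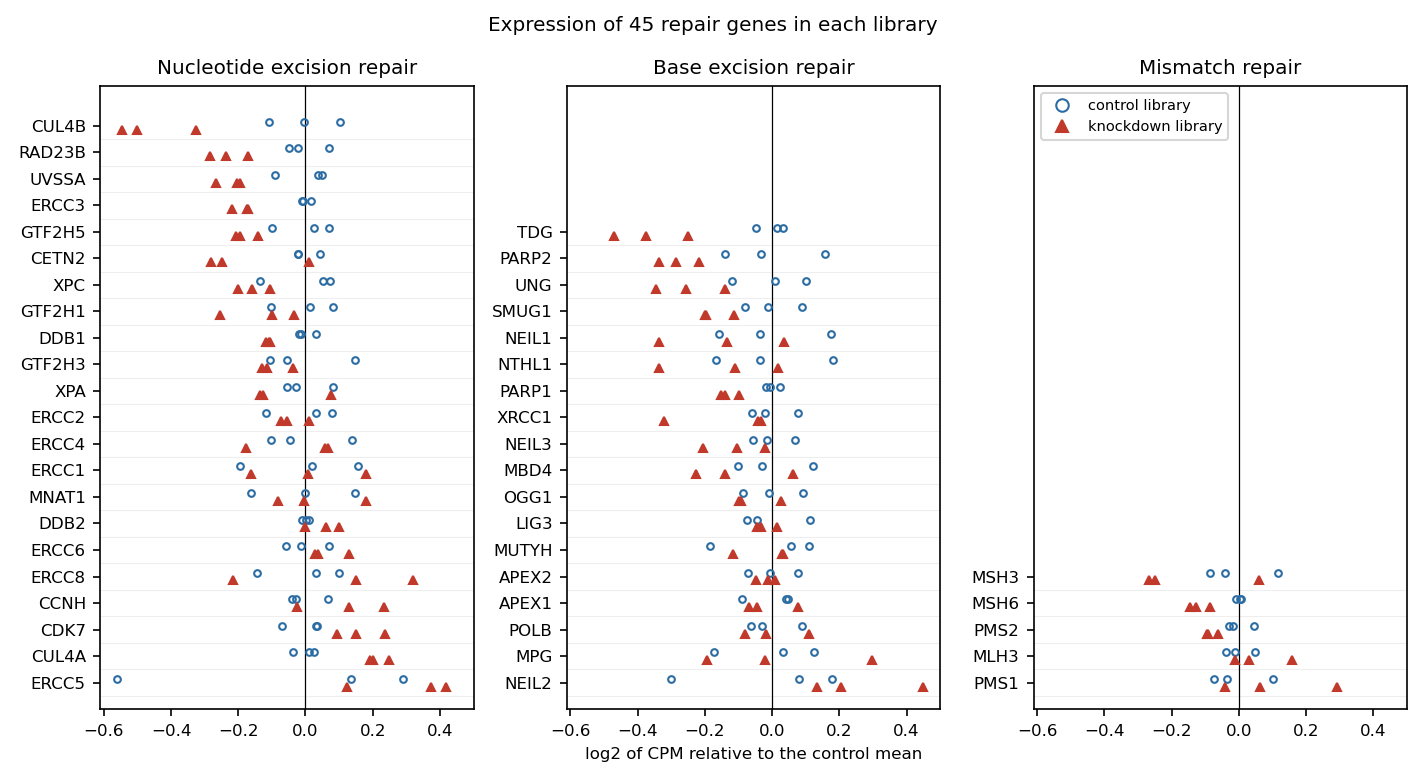
Each row is 1 of the 45 tested genes, and the horizontal axis gives the log2 of CPM in each library relative to the control mean of that gene, with circles for control and triangles for knockdown libraries. Triangles lie wholly to the left of the circles for CUL4B, RAD23B, UVSSA, ERCC3, TDG, PARP2 and UNG and wholly to the right for CUL4A. The same holds to the left for DDB1, GTF2H5, SMUG1, PARP1, MSH6 and PMS2 and to the right for CDK7, which were not called.

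The balance between lower and higher calls changed with abundance over all tested genes. Among genes with a mean of 100 CPM or more, 25.1% of all 2412 fell and 9.83% rose, and of the 8 repair genes in this range 2 fell and 1 rose. Between 30 and 100 CPM, 18.1% of all 4413 genes fell and 11.1% rose, and of 20 repair genes 3 fell. Between 10 and 30 CPM, 11.97% of all 3282 genes fell and 16.2% rose, and of 14 repair genes 2 fell. The 3 repair genes under 10 CPM did not pass, where 4.02% of all 7467 genes fell and 14.3% rose. In the 2 upper ranges the median log2 fold change of the repair genes was -0.12 and -0.09, against -0.06 and -0.04 over all genes of the same abundance. Removing this trend left 6 of the 8 calls, without ERCC3 and UNG.

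Per kilobase of exon, counted over all annotated exons of a gene together, levels differed widely. This length may exceed that of the transcripts in use. It was 13950 bases for DDB1 and 4615 for RAD23B, which stood at 508 and 347 CPM in control libraries. The order given here therefore holds on this scale only. In control libraries RAD23B was highest at 75.2 ± 3.34 CPM per kilobase (SD, n = 3). Next came APEX2, APEX1 and PARP1 at 55.4 ± 2.87, 54.2 ± 2.88 and 53.6 ± 0.787 CPM per kilobase, which did not differ beyond their spread. CUL4B at 36.5 ± 2.67, DDB1 at 36.4 ± 0.670 and UNG at 32.1 ± 2.44 CPM per kilobase followed. At the low end stood ERCC6 at 1.15 ± 0.0516 CPM per kilobase. The values of ERCC5 (0.3998 ± 0.114) and GTF2H4 (0.0874 ± 0.0392) were lower still but cannot be ranked, since 63.2% and 79.0% of their exonic bases are shared with another gene on the same strand. With knockdown, RAD23B stayed highest at 64.2 ± 2.58 CPM per kilobase, and DDB1 at 33.8 ± 0.132 stood above CUL4B at 26.6 ± 2.19 CPM per kilobase.

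**Figure D5:**
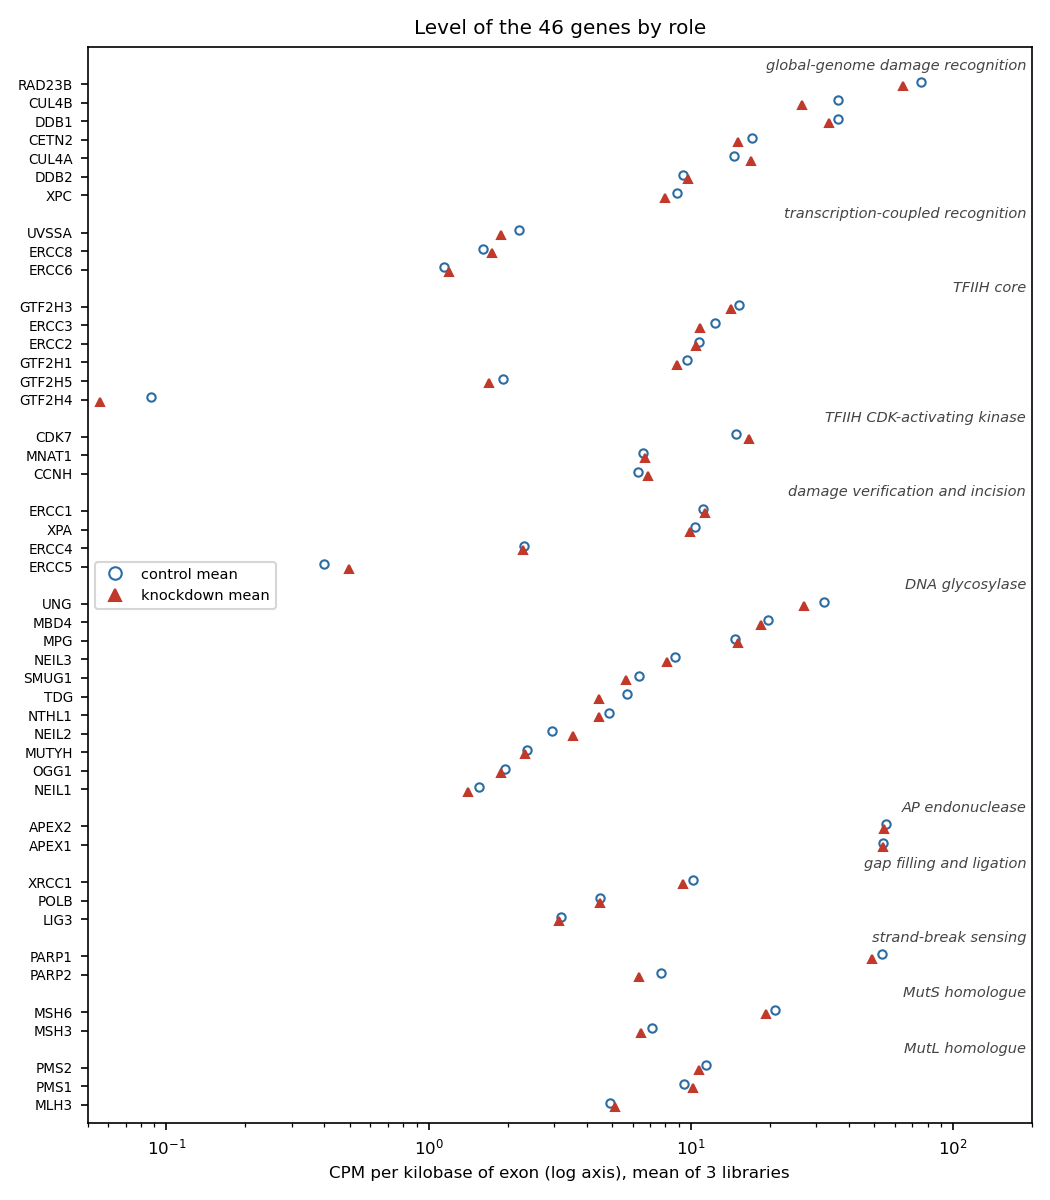
The horizontal axis gives the mean CPM per kilobase of exon over 3 libraries on a log axis, for all 46 genes grouped by role, with circles for control and triangles for knockdown. On this scale RAD23B lies highest, at 75.2 in control. The points of ERCC5 and GTF2H4 cannot be ranked, as most of their exonic bases are shared with another gene on the same strand.

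Repair in these pathways ends with DNA synthesis and ligation by proteins shared with replication. Of 20 resynthesis genes, 10 fell and 1 rose (median log2 fold change -0.15), and 55% were called against 25.2% of all tested genes. This background is not matched for abundance. The 50% that fell stand against 18.1% of all genes between 30 and 100 CPM and 25.1% of those at 100 CPM or more. FEN1, the flap nuclease of long-patch repair, fell from 148 ± 6.39 to 115 ± 4.93 CPM (SD, n = 3; log2 fold change -0.36, SE 0.0572, adjusted p = 0.000152, edgeR). PCNA, the sliding clamp, fell from 443 ± 6.33 to 374 ± 12.8 CPM (SD, n = 3; log2 fold change -0.24, SE 0.0490, adjusted p = 0.00144, edgeR). All 4 subunits of DNA polymerase epsilon fell, with log2 fold changes of -0.29 for POLE, -0.30 for POLE2, -0.22 for POLE3 and -0.35 for POLE4. LIG1, RPA2, RFC4 and POLD3 fell by 0.18, 0.18, 0.20 and 0.25 on the log2 scale, and POLD4, the small subunit of polymerase delta, rose by 0.38. Calls held in all 6 fits that left out 1 library for FEN1, PCNA, POLE and POLE4, in 5 for POLE3, in 4 for POLD3 and in 3 for RFC4. They held in 2 of the 6 for LIG1, POLE2 and POLD4 and in 1 for RPA2, and POLD4 was not called with DESeq2, with no filter or with the trend with abundance removed. The count of 11 dropped to 6 without control replicate 3, to 4 without knockdown replicate 1 and to 7 without knockdown replicate 3.

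Of 15 accessory genes, 2 fell and 2 rose. Among them RBX1 had a log2 fold change of -0.26, MMS19 of 0.21 and APLF of 0.34. MMS19 helps to load iron-sulphur clusters into proteins such as ERCC2, and APLF binds poly(ADP-ribose) at breaks. The 4 are 26.7% of the list, near the 25.2% of all tested genes, and the median of the list was 0.03. Their count was 2 without control replicate 1 or knockdown replicate 2, 1 without knockdown replicate 1 and 0 without control replicate 3 (edgeR).

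Exons shared with neighbouring genes touch some of these values, since it is not stated whether the counting used strand and reads from a gene and its antisense partner may then not be told apart. Of the 8 genes called, CUL4A shares 5.55% of its exonic bases with PCID2 and PARP2 3.17% with antisense genes on the opposite strand, and the other 6 share none. Larger overlaps on the opposite strand were found for NEIL1 (30.5%), LIG3 (30.5%), XPC (30.4%), OGG1 (29.04%), ERCC1 (28.6%) and MPG (27.3%), none of which was called.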

How the data were processed

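Total RNA of 6 libraries was extracted with TRIzol and prepared with the NEBNext Ultra RNA kit, per the labels. The authors deposited raw counts per gene, without normalization. The submitters' processing notes name CASAVA 1.8, fastp, HISAT2 2.0.5, featureCounts 1.5.0-p3, DESeq2 1.20.0 and GRCh38, without their settings. All rows matched GENCODE 29 by position. The number of sample columns not used was 0.

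The test was that of edgeR 4.0.16 under R 4.3.3 (filterByExpr, TMM factors, glmQLFit, glmQLFTest, Benjamini-Hochberg adjustment over 17574 tested genes, threshold 0.05), comparing 3 knockdown with 3 control libraries. CPM are counts scaled to a common library size over tested genes, after TMM. Standard errors were taken from the F statistic, and per-length levels used the union of exons. The fit was tested on simulated data.

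Alternatives were DESeq2 1.42.0, RLE factors, no filter, a minimum of 10 counts in every library, the replicate number as a block, removal of the trend with abundance (limma 3.58.1) and leaving out each library. Replicates of a group differed beyond sampling noise. Nothing states that they came from separate cultures, so p-values measure the spread between these libraries, which may be technical. The labels give no batch.

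The members and lists were chosen with earlier results of these data known. Named are all members called, the central genes of each pathway whatever their p, the members nearest the threshold, the member the filter removed, and called genes of the resynthesis and accessory lists. CETN2, ERCC8, DDB1, CDK7, SMUG1, NEIL2 and others outside this rule were named after their values were seen. 1 called gene of the accessory list is not reported here.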

Additional observations from a re-analysis of the deposited data

How the results depend on the processing

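Of the 8 calls among the repair genes, DESeq2 kept all 8 and made 11 in all, RLE factors made 9, no filter and a minimum of 10 counts made 8 each, and removal of the trend with abundance made 6. Over the fits without 1 library the count ranged from 5 to 9, with 5 without control replicate 1 and 5 without knockdown replicate 1, from 3 to 5 in nucleotide excision, 1 to 3 in base excision and 0 to 1 in mismatch repair. Without knockdown replicate 2, mismatch repair had 1 call, MSH3, and without knockdown replicate 1, base excision repair had 1. In the same fits the resynthesis count ranged from 4 to 11, the accessory count from 0 to 4, the count over all genes from 3030 to 4542 and the log2 fold change of CNOT7 from -2.13 to -1.98. DESeq2 called 1 mismatch repair gene, and removal of the trend left 7 resynthesis and 2 accessory calls. The cause of these differences was not tested.

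Whether the replicate numbers pair the libraries is not stated, and the main test took them as unpaired. Deviations of same-numbered libraries correlated at 0.0228, 0.153 and -0.0153. Control replicate 2 correlated best with knockdown replicate 2, whereas control replicates 1 and 3 did not correlate best with their own number. With the number as a replicate block, 17 repair genes were called (10 in nucleotide excision, 6 in base excision and 1 in mismatch repair), and 6508 over all genes against 4424.

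Log2 fold changes near 0 of genes that were not called changed sign. With the trend removed, values were 0.0026 for ERCC2, 0.039 for APEX1, 0.041 for APEX2, 0.0039 for LIG3 and -0.0101 for POLB. With no filter, ERCC1 was at -0.0042 and POLB at -0.0108, and POLB was at -0.0065 with DESeq2 and -0.0020 with RLE factors. Over the fits without 1 library, the ranges were -0.022 to 0.235 for ERCC8, -0.0951 to 6.8e-05 for ERCC2, -0.0438 to 0.111 for MNAT1, -0.0807 to 0.0974 for ERCC1, -0.0645 to 0.0594 for ERCC4, -0.102 to 0.0380 for MUTYH, -0.111 to 0.145 for MPG, -0.0614 to 0.0113 for APEX1, -0.0537 to 0.0207 for APEX2, -0.0485 to 0.0503 for POLB and -0.0610 to 0.0359 for LIG3. No scaling moved the median over all genes by more than 0.1 on the log2 scale. In simulated counts for this comparison, edgeR recovered 77 of 100 genes planted at a log2 change of 1 and 45 of 100 at 0.4. Changes of the latter size were thus often missed in the simulation. The planted genes were drawn at random from all 17574 tested genes, of which 7467 lay under 10 CPM, against 3 of the 45 repair genes. These rates therefore do not give the share of changes missed among the repair genes.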
